A study of Cavia porcellus with 44 samples.

Results

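The liver RNA of 16 of the 44 guinea pigs in this series bears on vitamin C (vitC) repletion during continued high fat feeding. Both groups were given a high fat feed low in vitC (HFL) for the first 16 weeks. The HFL/HFL group (n = 10) stayed on that feed to week 32, whereas the HFL/HFH group (n = 6) received the same fat and cholesterol with a high vitC level from then on. The feed held 20% fat and 0.35% cholesterol, with 50 mg vitC per kg as the low level and 2000 mg per kg as the high level. All animals were female Hartley guinea pigs, and the HFL/HFH animals were a random subset of a larger group. The members were taken by the diet in their labels, so that no measured value chose them. Beside them stand the HFH group (n = 8), on high fat with high vitC for all 32 weeks, and the HFL/LFL and HFL/LFH groups (n = 6 each). The latter were moved to a low fat feed without cholesterol after the same 16 weeks on HFL, with low or high vitC. The last group, LFH (n = 8), was given that low fat feed with high vitC for all 32 weeks. It entered the same statistical model.

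Guinea pigs, like humans, lack a working enzyme for the last step of vitC synthesis and take all ascorbate from the feed. Ascorbate enters cells through sodium-coupled transporters, and its oxidised form through glucose transporters, after which it is reduced again by thiol- and NADH-dependent enzymes. It keeps the iron of 2-oxoglutarate-dependent dioxygenases reduced, among them the prolyl and lysyl hydroxylases of collagen, the hydroxylases that mark hypoxia-inducible factors (HIF) for decay, the TET enzymes that oxidise methylated DNA, and the dioxygenases of carnitine synthesis.

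The deposited counts were given per gene symbol and summed to 21133807 to 30040014 per animal, and the mean of the log2 totals did not differ detectably between the groups (exact permutation test, two-sided, p = 0.433). Levels are given as CPM, counts per 1000000 of the effective library size (after TMM normalization), and 3 counts equalled 0.0859 to 0.127 CPM. The share of mitochondrially encoded symbols was 0.855% to 5.997% of counts, highest in animal 75 of HFL/HFL, and overlapped between groups (exact permutation test, p = 0.341). The 15 hepatocyte markers that could be tested summed to 42243 to 118780 CPM in HFL/HFL, lowest in animal 75, and 60813 to 102680 CPM in HFL/HFH. Of these markers 11 were lower in HFL/HFH (median log2 fold change -0.11, and -0.03 without animal 93 of HFL/HFL), none at an unadjusted p under 0.05. All differences are the log2 fold change of HFL/HFH over HFL/HFL with its standard error (SE) from edgeR's quasi-likelihood test with a mean for each of the 6 groups, over 7750 symbols with at least 200 counts in all. P-values were adjusted over these symbols by the Benjamini-Hochberg procedure.

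Few hepatic genes differed between HFL/HFH and HFL/HFL. A single symbol passed an adjusted p of 0.05, which is 0.0129% of those tested, and it rested on a single library. Without adjustment 261 symbols had a p under 0.05 (3.37%), 139 of them higher (1.79%) and 122 lower (1.57%) in HFL/HFH. The CPM of the groups did not overlap for 2 symbols (0.0258%). Over all symbols the median log2 fold change was -0.004 and its median size 0.12. Among the 5216 symbols with a mean of at least 10 CPM, the 95% interval lay within a 2-fold change in either direction for 95.6%, and this held for 87.7% of the 6599 symbols with at least 1 CPM. It lay within a 1.5-fold change for 79.7% and 66.2% of these symbols.

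The symbol that passed was PADI6, a member of the peptidylarginine deiminase family known from oocytes. Animal 20 of HFL/HFH held 5378 counts, or 200 CPM, whereas the other 5 animals of that group lay at 0 to 0.334 CPM and the HFL/HFL animals at 0 to 0.233 CPM. The log2 fold change was 8.85 ± 1.56 (SE, adjusted p = 0.0248), and that animal carried 99.8% of its group's summed CPM. Without it the log2 fold change was -0.10 (adjusted p = 0.997). DESeq2 gave no p for it on 44 or 16 animals. Among the HFH animals PADI6 lay at 0 to 0.605 CPM.

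Of the remaining symbols, NARS2, the mitochondrial asparaginyl-tRNA synthetase, had the smallest p. Its level was 24.0 to 52.8 CPM in HFL/HFL (median 30.7) and 16.7 to 25.2 CPM in HFL/HFH (median 21.1). A single HFL/HFH animal, 15, lay above the lowest HFL/HFL animal. The log2 fold change was -0.67 ± 0.15 (SE, p = 4.18e-05, adjusted p = 0.162), and it stayed between -0.74 and -0.57 when each animal was left out in turn. With DESeq2 on all animals NARS2 was the only symbol that passed (adjusted p = 0.0434). In HFH, where vitC was high throughout, NARS2 lay at 15.2 to 27.4 CPM, and it was lower than in HFL/HFL by the same edgeR test (log2 fold change -0.58, adjusted p = 0.039). The log2 fold change of HFL/HFH over HFH was -0.09 ± 0.15 (SE).

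ECE1, the protease that releases active endothelin from its precursor, was the next. It lay at 116 to 172 CPM in HFL/HFL (median 142), 152 to 227 CPM in HFL/HFH (median 190) and 168 to 252 CPM in HFH. All HFL/HFH animals but animal 20 lay above every HFL/HFL animal. The log2 fold change was 0.41 ± 0.10 (SE, edgeR adjusted p = 0.267). HFH over HFL/HFL gave 0.45 (edgeR adjusted p = 0.0219) and HFL/HFH over HFH gave -0.03 ± 0.10 (SE). These comparisons share animals and are not independent of each other. On low fat ECE1 averaged 208 CPM in HFL/LFL, 181 CPM in HFL/LFH and 187 CPM in LFH, against 145 CPM in HFL/HFL. There HFL/LFH over HFL/LFL gave -0.20 (log2), the opposite sign to high fat.

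**Figure D1:**
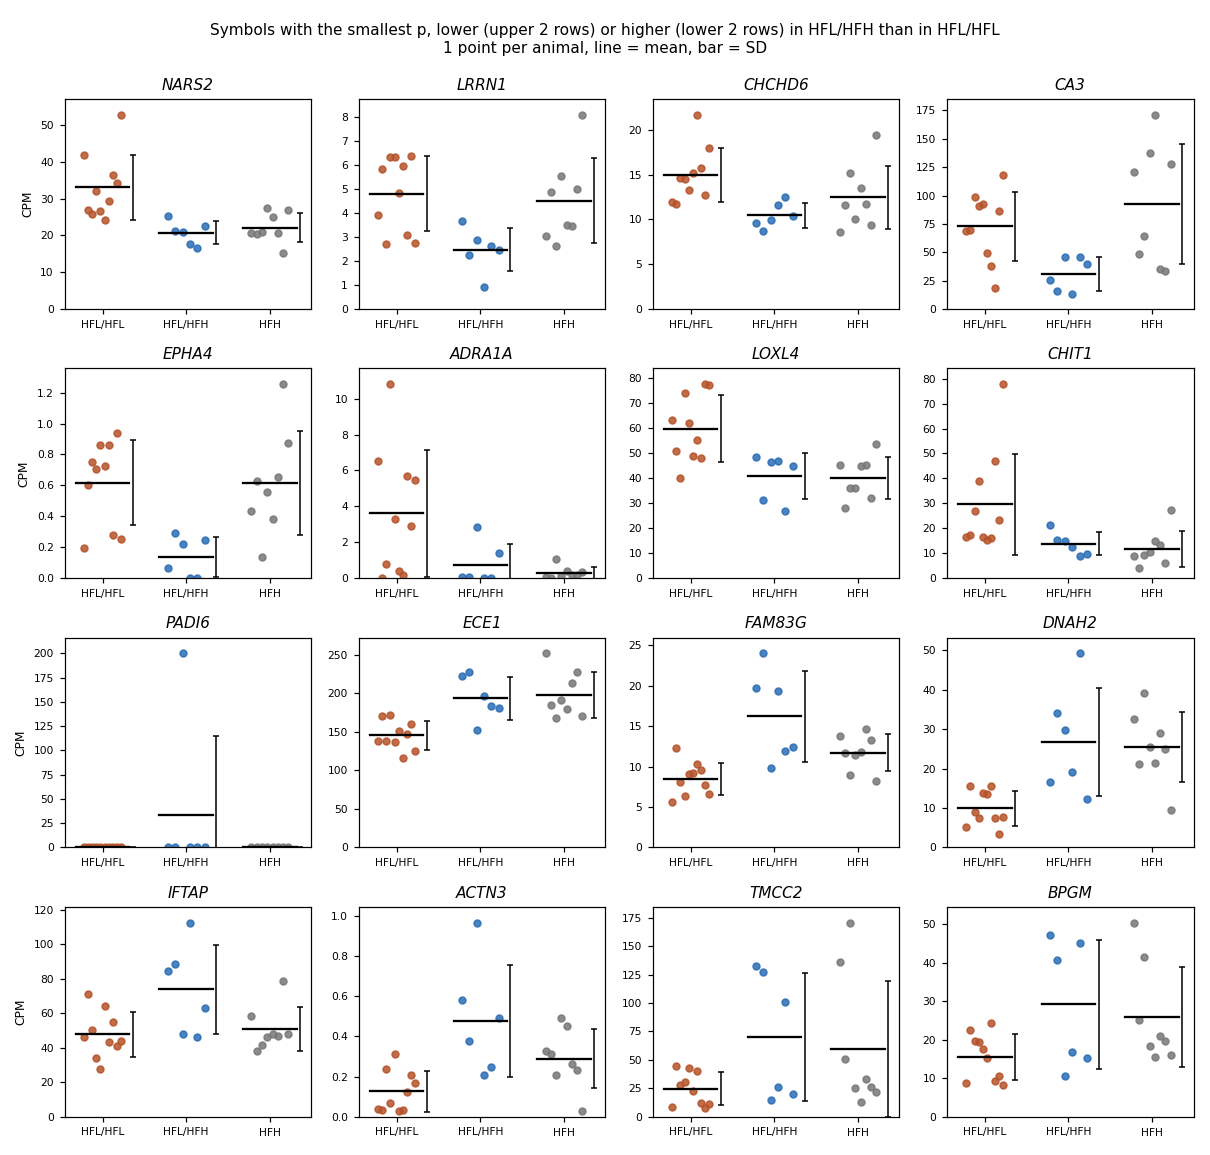
CPM by animal (y axes from 0) in HFL/HFL, HFL/HFH and HFH for the 8 symbols with the smallest p in each direction, with means (lines) and SD (bars). PADI6 is at 200 CPM in 1 animal and at or near 0 in the others, NARS2 is lower and ECE1 higher in HFL/HFH with HFH at about the same levels, and TMCC2 and BPGM have 3 high HFL/HFH animals.

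Further symbols higher in HFL/HFH belonged to several cell functions, and none passed the adjusted threshold with edgeR. FAM83G, a scaffold of casein kinase 1, rose by voom with sample weights (adjusted p = 0.0439) and by DESeq2 on the 16 animals (adjusted p = 0.0353), with 5.63 to 12.3 CPM in HFL/HFL and 9.79 to 24.0 CPM in HFL/HFH. Its edgeR log2 fold change was 0.94 ± 0.24 (SE). DNAH2, a dynein heavy chain of motile cilia, passed in the same DESeq2 fit (adjusted p = 0.0353) with 3.48 to 15.7 CPM against 12.2 to 49.2 CPM, and had a log2 fold change of 1.44 in edgeR. IFTAP, an intraflagellar transport protein, lay at 27.8 to 71.0 CPM in HFL/HFL and 46.3 to 113 CPM in HFL/HFH. ACTN3, the fast muscle alpha-actinin, stayed under 1 CPM in all 16 animals. DNAJB2, an HSP70 co-chaperone, was the symbol with at least 1 CPM whose groups did not overlap, at 76.6 to 95.1 CPM and 96.0 to 117 CPM. Its log2 fold change was 0.28 ± 0.09 (SE, edgeR adjusted p = 0.9997), and HFH over HFL/HFL gave -0.08. The other symbol without overlap was DLGAP3, a postsynaptic scaffold with 0 to 0.731 CPM and 0.754 to 1.46 CPM, named here because its values were seen.

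Among the symbols lower in HFL/HFH, CHCHD6, a subunit of the complex that shapes mitochondrial cristae, lay at 11.7 to 21.7 CPM in HFL/HFL and 8.70 to 12.5 CPM in HFL/HFH (log2 fold change -0.51 ± 0.15, SE). CA3, a cytosolic carbonic anhydrase, lay at 18.3 to 118 CPM and 13.3 to 45.6 CPM (log2 fold change -1.25 ± 0.39, SE), whereas HFH over HFL/HFL gave 0.34. LRRN1 had a log2 fold change of -0.97 ± 0.25 (SE), with -0.09 for HFH over HFL/HFL. ADRA1A, the alpha-1A adrenergic receptor, lay at 0 to 10.8 CPM in HFL/HFL and 0 to 2.83 CPM in HFL/HFH, with a log2 fold change of -2.33 ± 0.75 (SE). Animal 20 held 65.0% of the HFL/HFH group's summed CPM, and without it the value was -3.54. ADRA1A was lower in HFH than in HFL/HFL (log2 fold change -3.64, edgeR adjusted p = 0.0236). All high fat groups were low for it. Its mean was 3.61 CPM in HFL/HFL, against 75.4 CPM in HFL/LFL, 98.7 CPM in HFL/LFH and 144 CPM in LFH. EPHA4, an ephrin receptor, was under 1 CPM in both groups.

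No gene of ascorbate transport and recycling passed the test. Of 14 listed genes 10 could be tested, and 6 were higher and 4 lower, with a median log2 fold change of 0.03 against -0.004 over all symbols, and of -0.05 without animal 75 of HFL/HFL or 0.12 without animal 30 of HFL/HFH. SLC23A2, the sodium-dependent ascorbate transporter, lay at 24.7 to 58.5 CPM in HFL/HFL and 28.98 to 59.9 CPM in HFL/HFH. Its log2 fold change was 0.01 with a 95% interval of -0.31 to 0.33. Of the glucose transporters that carry dehydroascorbate, SLC2A1 gave 0.14 ± 0.19, SLC2A2 0.07 ± 0.30, SLC2A4 -0.37 ± 0.39 and SLC2A8 -0.22 ± 0.25 (log2, SE). Leaving out each animal in turn gave -0.64 to -0.23 for SLC2A4 and -0.42 to -0.10 for SLC2A8. Of the enzymes that reduce oxidised ascorbate, GLRX gave 0.05, GSTO1 -0.05, GSTO2 0.34, CYB5R3 -0.16 and TXNRD2 0.17 on the log2 scale, and TXNRD2 had the smallest p (0.132, edgeR, unadjusted).

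Nor did any tested enzyme that uses ascorbate, but many could not be tested. Of 33 listed HIF hydroxylases and chromatin or nucleic acid dioxygenases 13 could be tested. Of 12 other ascorbate-dependent or 2-oxoglutarate enzymes 9 could be. Of 14 collagen hydroxylases 6 could be tested, and their log2 fold changes were -0.46 for P4HA3, -0.26 for P3H2, -0.18 for P4HA1, -0.14 for P3H1, 0.08 for P4HA2 and 0.15 for PLOD2. Their median of -0.16 was negative whichever animal was left out (-0.23 to -0.10, the latter without animal 12 of HFL/HFL) and -0.08 with the ALAS2 covariate described with the red cell genes, with no p under 0.05 in any member. P4HA1, a catalytic subunit of collagen prolyl 4-hydroxylase, lay at 29.3 to 76.0 CPM in HFL/HFL and 31.4 to 51.2 CPM in HFL/HFH. The mean log2 CPM of the 6 genes was below the HFL/HFL mean in all HFL/HFH animals but animal 20, within the HFL/HFL range in 4 of the 6. Among the HIF hydroxylases EGLN1 gave 0.01, EGLN3 -0.04 and HIF1AN -0.08 on the log2 scale, with 95% intervals of -0.32 to 0.33, -0.71 to 0.64 and -0.28 to 0.12. The 26 tested HIF1 targets had a median log2 fold change of 0.02, with 15 higher and 11 lower, and PGAM1 of glycolysis alone had an unadjusted p under 0.05 (0.0455). Its log2 fold change was 0.23, and 0.14 without animal 15 (p = 0.216). TET3 gave -0.17 ± 0.15 and TET1 0.17 ± 0.56 (log2, SE), and the latter was at most 2.05 CPM. In carnitine synthesis BBOX1 gave -0.06 and TMLHE -0.08 on the log2 scale. Of the copper monooxygenases that use ascorbate, PAM, which amidates peptides, lay at 32.7 to 90.4 CPM in HFL/HFL and 39.9 to 89.97 CPM in HFL/HFH, with a log2 fold change of 0.13 ± 0.21 (SE). DBH, which makes noradrenaline, was under 1 CPM in all 16 animals and gave 1.0 with a 95% interval of -1.05 to 3.05, and -0.60 without animal 22. EGLN2, TET2 and HPD were not analysed here.

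**Figure D2:**
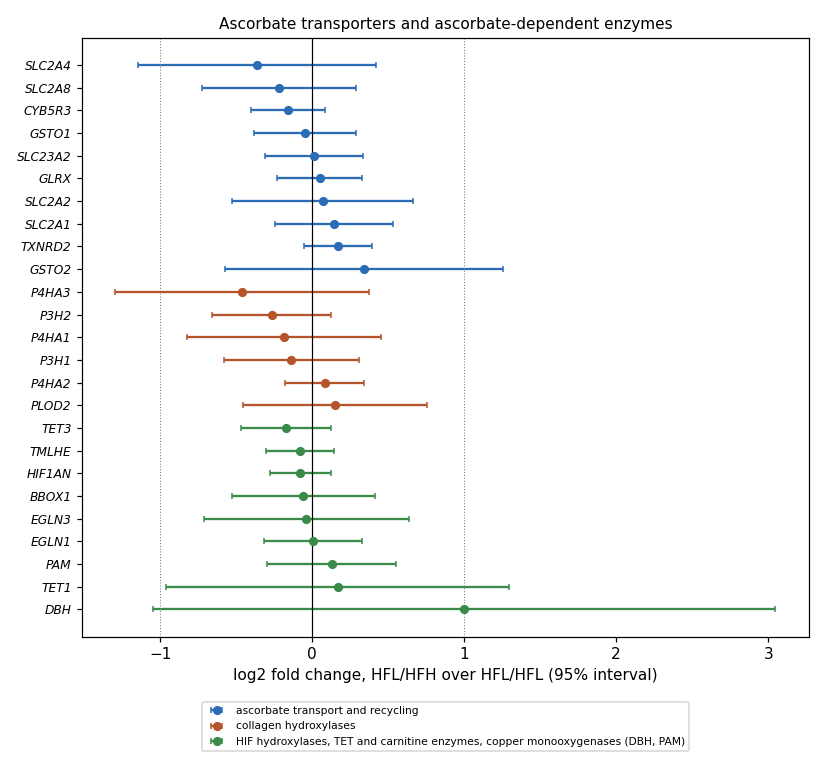
Log2 fold change of HFL/HFH over HFL/HFL (x axis) with 95% intervals for the tested genes of ascorbate transport, collagen hydroxylation and the other ascorbate-dependent enzymes named in the text; dotted lines mark a 2-fold change. Each interval spans 0, and the point estimates run from -0.46 (P4HA3) to 0.34 (GSTO2) except for DBH at 1.0, whose interval is the widest.

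Antioxidant, matrix and lipid genes had no called member either. The 17 genes of NRF2 and glutathione had a median log2 fold change of 0.04, but -0.03 without animal 19 and -0.003 with ALAS2 as a covariate. At an unadjusted p under 0.05, 2 of these genes were higher in HFL/HFH, where 1.79% of all symbols were. They were GSS of glutathione synthesis (0.38) and SRXN1, sulfiredoxin (0.90). GSS had a p of 0.160 without animal 22, and SRXN1 of 0.183 without animal 15. The 22 peroxide and superoxide enzymes gave a median of -0.09, and -0.03 without animal 22 or -0.14 without animal 84, with none under that p. Of 32 matrix genes 15 were higher and 17 lower (median -0.04, but -0.12 without animal 15 and 0.01 without animal 52 of HFL/HFL). Their smallest p belonged to LOXL4, a lysyl oxidase-like crosslinking enzyme, at 39.9 to 77.6 CPM in HFL/HFL and 26.98 to 48.3 CPM in HFL/HFH (log2 fold change -0.55 ± 0.18, SE, edgeR adjusted p = 0.9997). In the 15 genes of cholesterol synthesis the median log2 fold change was 0.06, with 9 higher and 6 lower. That median was 0.002 without animal 81 of HFL/HFL and 0.12 without animal 34 of HFL/HFL. PLIN2, the coat protein of hepatic lipid droplets, lay at 119 to 269 CPM in HFL/HFL and 140 to 571 CPM in HFL/HFH, and animals 22, 15 and 19 lay above every HFL/HFL animal. Its log2 fold change was 0.74 ± 0.29 (SE, edgeR adjusted p = 0.9997), and 0.48 without animal 19 (p = 0.119, unadjusted). Fatty acid oxidation (20 genes, median 0.00), bile acid synthesis and transport (11 genes, -0.08) and lipoproteins (15 genes, -0.15, or -0.05 without animal 15, 12 of them lower) had no called member. For CPT2, an enzyme of mitochondrial fatty acid import, the log2 fold change was 0.38 ± 0.18 (SE). Without animal 19 its p was 0.187 (edgeR, unadjusted). The plot of gene lists gives every tested member.

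**Figure D3:**
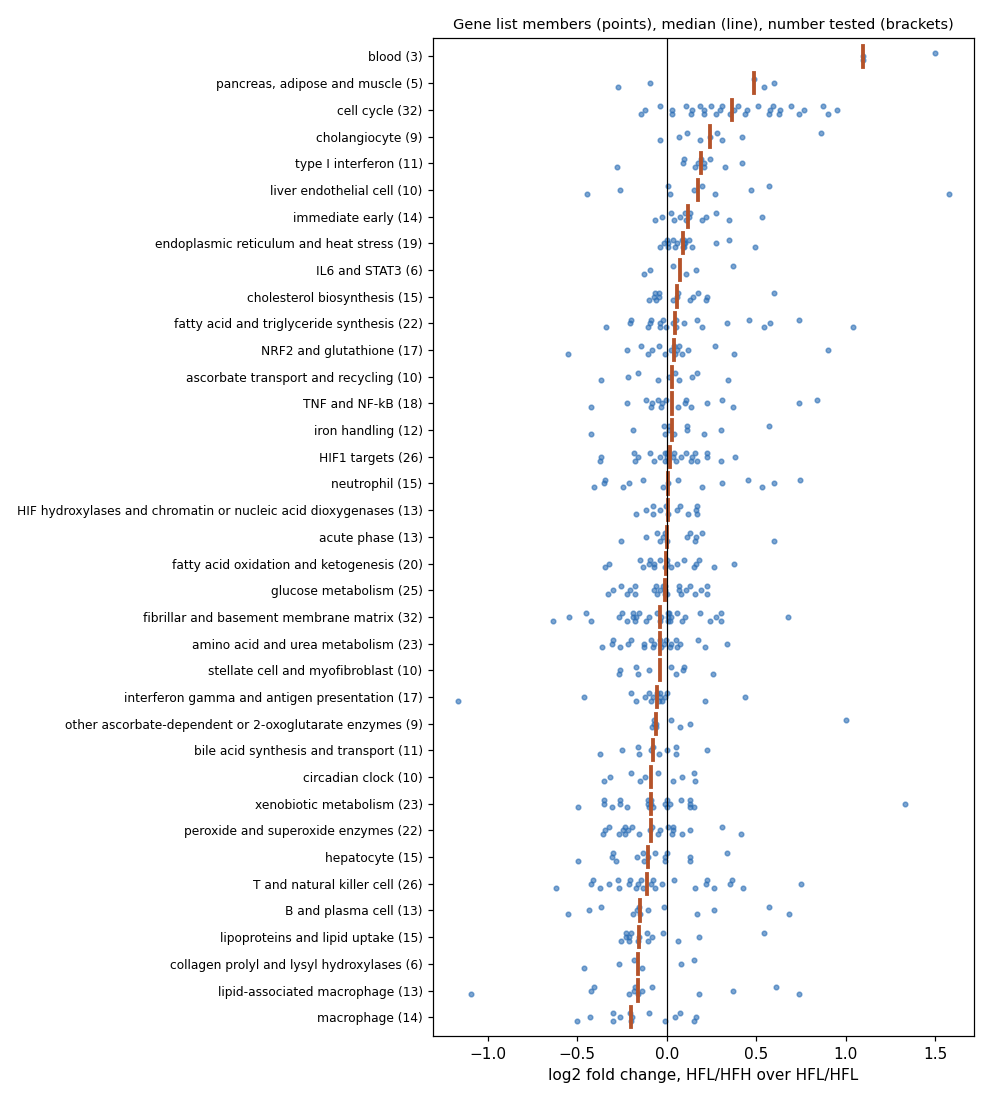
Log2 fold change of HFL/HFH over HFL/HFL (x axis) for the tested members of each gene list (points, number in brackets) and their median (line), ordered by median. Most medians lie within 0.2 of 0 on the log2 scale, and the blood list (1.10), the pancreas, adipose and muscle list (0.49, 5 genes, and -0.02 without animal 15) and the cell cycle list (0.36, and 0.06 without animal 15) lie highest.

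Inflammatory genes were mixed. Of the 14 tested macrophage markers 10 were lower (median log2 fold change -0.20, and -0.09 without animal 30). MSR1, a scavenger receptor, lay at 117 to 194 CPM in HFL/HFL and 74.5 to 146 CPM in HFL/HFH, and gave -0.43 ± 0.19 (log2, SE). FCER1G, the Fc receptor gamma chain, gave -0.50. Without animal 30 the p was 0.107 for MSR1 and 0.0987 for FCER1G (edgeR, unadjusted). Of 13 genes of lipid-associated macrophages 9 were lower (median -0.16, and -0.02 without animal 30). At an unadjusted p under 0.05 this list held 1 lower member, CHIT1, and 1 higher member, PLIN2 (log2 fold change 0.74). Of all symbols 1.57% were lower and 1.79% higher at that p. CHIT1, the macrophage chitinase, lay at 15.4 to 77.9 CPM in HFL/HFL and 8.80 to 21.4 CPM in HFL/HFH, with a log2 fold change of -1.10 ± 0.36 (SE), and -0.81 without animal 93 of HFL/HFL. The summed CPM of the macrophage markers overlapped widely, at 3861 to 6611 in HFL/HFL and 2941 to 5114 in HFL/HFH. In bulk tissue, fewer cells of a type and less RNA per cell cannot be told apart. For CCL2, a monocyte chemokine, the log2 fold change was 0.84 ± 0.33 (SE), with 19.4 to 42.5 CPM in HFL/HFL and 17.4 to 76.8 CPM in HFL/HFH. Neutrophil (15 genes, 0.01) and acute phase genes (13 genes, 0.00) had no member under an unadjusted p of 0.05, nor did the interferon lists. The neutrophil median was 0.30 without animal 81 of HFL/HFL, -0.11 without animal 30 of HFL/HFH and -0.15 with ALAS2 as a covariate. Of 11 type I interferon genes 10 were higher (median log2 fold change 0.19), but without animal 19 the median was 0.01, and 0.09 with the log2 CPM of ALAS2 as a covariate, which was added after the data were seen. The mean log2 CPM of these genes was above the HFL/HFL mean in 3 of the 6 HFL/HFH animals. Of 17 genes of interferon gamma and antigen presentation 14 were lower (median -0.05, and 0.06 without animal 90 of HFL/HFL). CXCL10, an interferon-induced chemokine, gave -1.17 on the log2 scale, but animal 90 of HFL/HFL held 281 CPM against 11.8 to 27.7 CPM in the other 9, and without it the value was 0.11.

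Most cell cycle genes were higher in HFL/HFH, and none passed after adjustment. Of 32 tested members 29 were higher in HFL/HFH (median log2 fold change 0.36), where 3801 of all 7750 symbols were. An unadjusted p under 0.05 was reached by 6 of them, where 1.79% of all symbols reached it in that direction. They included TYMS, thymidylate synthase, with 0.77 ± 0.28, CENPF, a kinetochore protein, with 0.63 ± 0.23, and MCM3, a subunit of the replicative helicase, with 0.45 ± 0.18 (log2, SE). CENPF lay at 8.98 to 24.8 CPM in HFL/HFL, and in HFL/HFH at 57.0 CPM in animal 15, 28.6 CPM in animal 19 and 16.9 to 20.7 CPM in the other 4. Without animal 15 the median of the list was 0.06, CENPF gave 0.25 (p = 0.256), TYMS 0.45 (p = 0.123) and MCM3 0.28 (p = 0.125, edgeR, unadjusted). Without animal 30 the median was 0.46.

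Genes of red blood cells varied most between animals. ALAS2, the erythroid enzyme of haem synthesis, lay at 0.821 to 45.0 CPM in HFL/HFL, and in HFL/HFH at 96.6, 113 and 143 CPM in animals 19, 15 and 30, against 3.35, 6.78 and 23.2 CPM in animals 20, 84 and 22. The log2 fold change was 1.497 ± 0.64 (SE, edgeR adjusted p = 0.9997), and 0.62 by voom with sample quality weights. HBA2, an alpha globin chain that has the same counts as HBA1 in these files and cannot be told from it, lay at 201 to 4977 CPM in HFL/HFL and 349 to 11702 CPM in HFL/HFH. BPGM, which makes the 2,3-bisphosphoglycerate of red cells, gave 0.91 ± 0.27, and TMCC2 gave 1.499 ± 0.44 (log2, SE). The same 3 HFL/HFH animals were highest for both, at 40.5 to 47.1 CPM for BPGM and 101 to 133 CPM for TMCC2. Among HFH, animals 1 and 9 stood as high. With the log2 CPM of ALAS2 as a covariate, added after the data were seen, BPGM gave 0.41 and TMCC2 0.65 on the log2 scale, the cell cycle median was 0.27, and NARS2 and ECE1 gave -0.57 and 0.37. The median log2 fold change of the blood list was 1.10, and 0.59 without animal 30. The summed blood markers ranged over 202 to 5019 CPM in HFL/HFL, 353 to 11845 CPM in HFL/HFH and 914 to 12958 CPM in HFH. Whether blood in the tissue has a part in the cell cycle or the PC2 values was not tested.

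**Figure D4:**
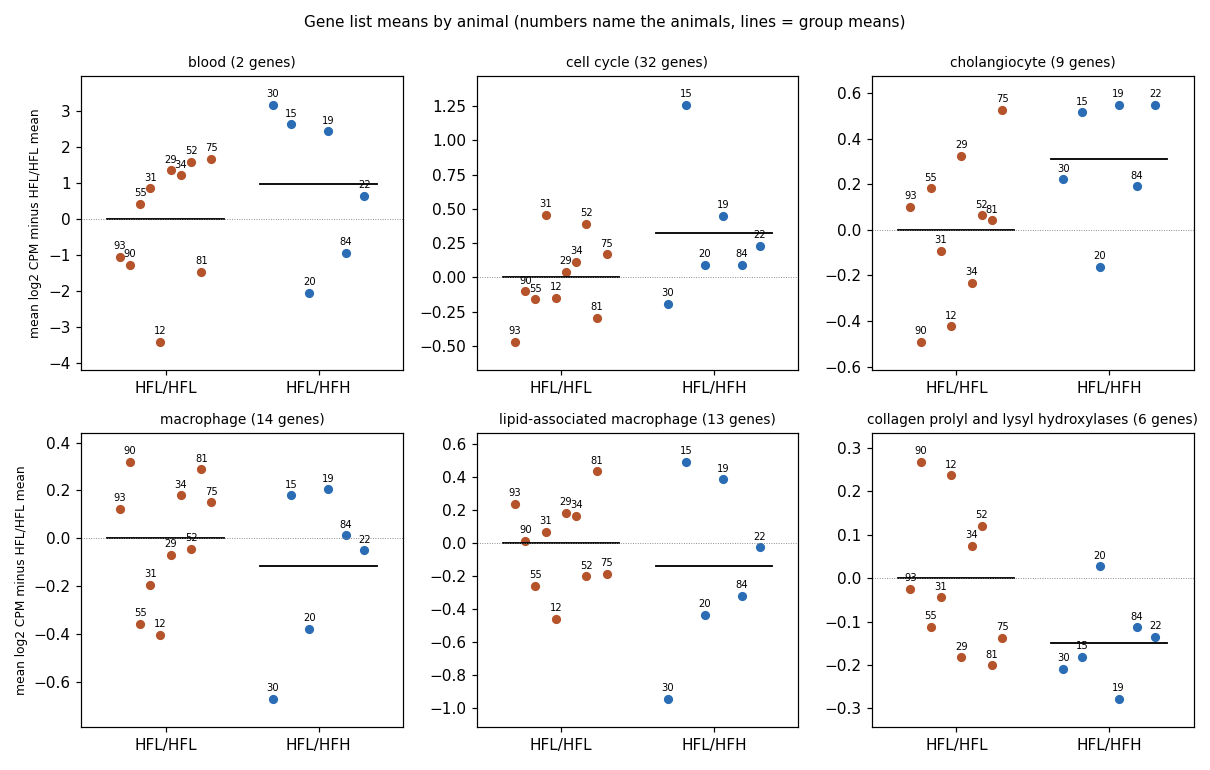
Mean log2 CPM of 6 gene lists in each animal, relative to the HFL/HFL mean (y axis), with animal numbers and group means (lines). Animals 30, 15 and 19 are highest for blood, animal 15 stands at 1.261 for the cell cycle, and animal 30 is lowest for both macrophage lists, at -0.67 and -0.95.

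The epithelial and endothelial lists were also checked. Of 9 tested cholangiocyte markers 8 were higher (median log2 fold change 0.24), with CLDN4, a tight junction protein of bile ducts, at 23.3 to 72.4 CPM in HFL/HFL and 36.5 to 140 CPM in HFL/HFH (0.86 ± 0.26, SE). The median of the list was 0.12 without animal 90 of HFL/HFL and 0.11 with ALAS2 as a covariate. Of 10 endothelial markers 8 were higher (median 0.17, and 0.10 without animal 19 or 0.11 with ALAS2 as a covariate). At an unadjusted p under 0.05, BMP2, a growth factor of sinusoidal endothelium, gave 0.57 ± 0.22 and VWF, the von Willebrand factor, 0.47 ± 0.23, whereas RSPO3, a Wnt signal enhancer, gave -0.44 ± 0.19 (log2, SE). Of all symbols 1.79% were higher and 1.57% lower at that p. RSPO3 lay at 19.3 to 53.2 CPM in HFL/HFL and 16.4 to 28.8 CPM in HFL/HFH, and gave -0.30 without animal 52 of HFL/HFL, and VWF gave 0.31 without animal 15 of HFL/HFH. In principal component analysis of the 16 animals, the first 3 components held 27.9%, 18.1% and 9.47% of the variance. None separated the groups (exact permutation test of the scores, two-sided, p = 0.709, 0.152 and 0.949, adjusted 0.949, 0.457 and 0.949). HBA2, HBA1 and ALAS2 had the largest loadings at one end of the second component, where animals 15 and 19 stood at -24.0 and -20.5, whereas animal 30, with the highest ALAS2 level and blood sum of the HFL/HFH animals, stood at -0.64.

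The same vitC contrast after the change to low fat gave more calls. HFL/LFH over HFL/LFL had 17 called symbols (0.219%), 5 higher and 12 lower with high vitC. Voom with sample quality weights called 40, of which 22 were higher and 18 lower, and DESeq2 on all animals called 80, of which 29 were higher and 51 lower. No animal is shared between these contrasts. On high fat none of the 17 passed, and 7 had the same sign and 10 the opposite sign. Their median size on the log2 scale was 1.14 after the change to low fat, where they were chosen, and 0.15 on high fat. LRG1, an acute-phase glycoprotein, gave -2.14 after the change to low fat and 0.17 ± 0.32 (SE) on high fat. HPX, the haem-binding hemopexin, gave -1.29 and 0.00 on the log2 scale, and APCS, the pentraxin serum amyloid P, -1.07 and 0.16. CXCL11, an interferon-induced chemokine, gave -4.70 and 0.21. KRT23, a keratin induced in injured liver, gave -1.94 and 0.07. ABCB1, a drug efflux pump, gave -2.15 and -0.73.

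**Figure D5:**
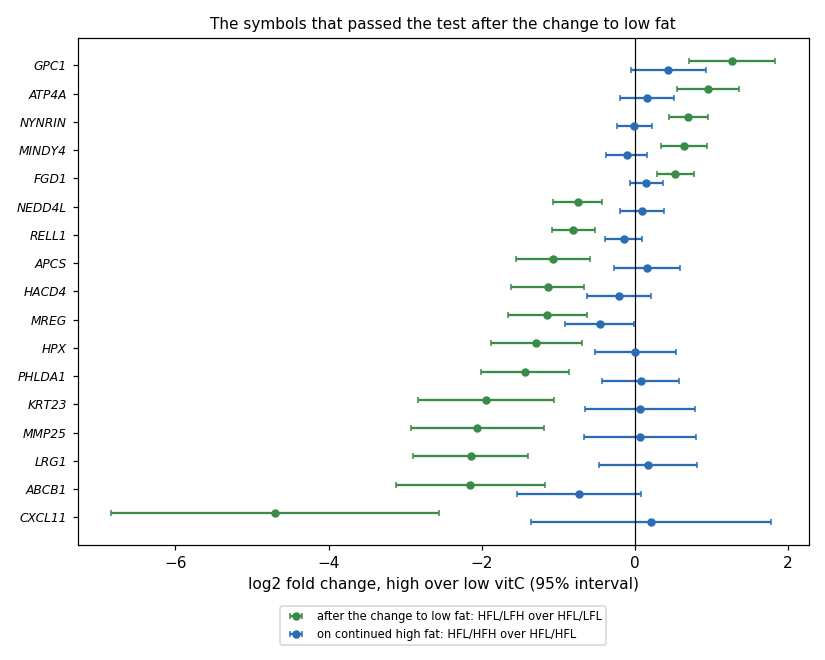
Log2 fold change of high over low vitC (x axis) with 95% intervals for the 17 symbols called after the change to low fat, in that comparison (green) and on continued high fat (blue). LRG1 stands at -2.14 and 0.17, and 16 of the 17 blue intervals span 0, MREG being the exception.

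The difference between the contrasts was tested directly as the interaction of vitC and diet. No symbol passed (0%, edgeR, smallest adjusted p = 0.151), and 638 had an unadjusted p under 0.05. With DESeq2 on all animals 3 passed, ADAMTS4, MOCS3 and LRG1. All 17 symbols had an unadjusted interaction p under 0.05, but they were chosen by the low fat contrast, which enters the interaction. The smallest interaction p-values belonged to LRG1 (log2 difference 2.31), ADAMTS4, an aggrecan-cleaving protease (2.81), ECE1 (0.62), NYNRIN (-0.71) and POU2AF1, a B cell coactivator (1.70). Of these, ADAMTS4 gave 0.93 ± 0.43 (SE) on high fat and -1.89 on low fat, and POU2AF1 gave 0.68 ± 0.27 (SE) and -1.01. Without animal 30 of HFL/HFH the high fat p of POU2AF1 was 0.0986 (edgeR, unadjusted). Of the 13 tested B and plasma cell markers, POU2AF1 among them, 9 were lower on high fat (median log2 fold change -0.15, and -0.01 without animal 19), and JCHAIN, the joining chain of secreted immunoglobulins, gave -0.55 ± 0.26 (SE) at an unadjusted p of 0.0385, or 0.0994 without animal 20 (edgeR). Animal 19 of HFL/HFH held 28.8 CPM of ADAMTS4 against 4.54 to 14.2 CPM in the other 5, and without it the high fat value was 0.52 (log2, edgeR p = 0.253, unadjusted).

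HFH over HFL/HFL, whose feeds differed in vitC over all 32 weeks and were eaten freely, had 21 called symbols (0.271%), 12 higher and 9 lower. Voom with sample quality weights called 557, of which 236 were higher and 321 lower, and DESeq2 on all animals called 147, of which 79 were higher and 68 lower. HFL/HFH over HFH had none (0%, edgeR), with 466 at an unadjusted p under 0.05, and no other tool called one. Side by side, the log2 fold changes of HFH and of HFL/HFH, each over HFL/HFL, were 0.70 and 0.45 for MCM3 and 0.74 and 0.30 for LAMC1, a laminin chain. Without animal 15 of HFL/HFH the second values were 0.28 (p = 0.125) for MCM3 and 0.14 (p = 0.434) for LAMC1 (edgeR, unadjusted). ITGA9, an integrin chain, gave 0.48 and 0.01. These columns share the 10 HFL/HFL animals, so that a high or low HFL/HFL group moves both.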

How the data were processed

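Liver RNA of 44 female guinea pigs in 6 groups was sequenced after oligo-dT selection. The authors trimmed the reads with Trimmomatic 0.38.0, aligned them with HISAT2 2.1.0 to the Ensembl guinea pig genome Cavpor3.0, quantified them with StringTie 2.1.1 and named genes by human orthologue symbols. The deposited count table holds raw whole-number counts per symbol. How these were derived from StringTie's output is not given in the sources used here. The deposited log2 values were variance-stabilized by the authors with DESeq2 and used for the principal components.

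Counts were fitted in R 4.3.3 with edgeR 4.0.16 (TMM, quasi-likelihood F test), which was tested on simulated data. Only symbols with at least 200 counts over all animals entered. The 37 gene lists, the groups and the rule for named genes were chosen with earlier results of these data known. The rule names symbols with an adjusted p under 0.05, the 8 smallest p per direction, up to 5 per direction without overlap and with at least 1 CPM, all tested ascorbate transport and dioxygenase genes named in the text, up to 3 smallest p of each list described, and the 5 smallest interaction p. Some symbols that the rule names are not reported here. A call was taken to rest on a single library if it was lost without 1 animal or if 1 animal held over 50% of its group's summed CPM. Alternatives were RLE and upper-quartile normalization, 3 other filters, same counts taken once, a robust fit, only the 16 animals, limma 3.58.1 voom with sample quality weights, DESeq2 1.42.0, and each animal left out in turn. Labels give no batch, so none could be modelled. No paired analysis was possible because each animal belongs to a single group. P-values measure the spread between animals. No sequence or coordinate is given, since no reference of this build was used.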

Additional observations from a re-analysis of the deposited data

Results flagged for a closer look

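Among the symbols named by the rule, the total counts and the first 3 components, 274 groups of animals were checked for a single animal far from the others on the log2 scale. In 21 of them the ratio of the gap to the whole range was above Dixon's limit, where chance gives about 1 in 20.

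In HFL/HFL, animal 75 was lowest for CLDN4 (ratio 0.542), F9 (0.576), CD3E (0.620), BBOX1 (0.473) and SLC23A2 (0.569), and highest for VLDLR (0.517). It also had the highest mitochondrial share of the 16 animals (5.997%) and the lowest sum of hepatocyte markers (42243 CPM), and their part in these values was not tested. Animal 90 was highest for CXCL10 (0.732), SOCS3 (0.529) and ZFP36 (0.4933). Animal 29 was highest for ELOVL2 (0.510) and EPCAM (0.516). Animal 81 was lowest for PLIN1 (0.646) and for the third component (0.504).

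In HFL/HFH, animal 20 was highest for PADI6 (0.787), BCKDHB (0.642) and LRAT (0.708). Animal 30 was lowest for LGALS3 (0.645), TRIM21 (0.659) and SLC23A2 (0.661), and highest for FGFR4 (0.752). Animal 22 was lowest for LRRN1 (0.634).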

How the results depend on the processing

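Of the 28 alternatives for HFL/HFL against HFL/HFH, none called more than 2 symbols. With 1 call in the reported fit, filterByExpr, only the 16 animals and ALAS2 as a covariate gave 0 calls each, DESeq2 on 16 animals gave 2 (DNAH2 and FAM83G), and leaving out each animal gave 0 to 1. PADI6 was lost without animal 20 of HFL/HFH and also without each HFL/HFL animal but animal 55. Over all 16 fits that left out an animal its log2 fold change ran from -0.10 to 9.34. Voom with sample quality weights called 40 symbols for HFL/LFL against HFL/LFH and 557 for HFH against HFL/HFL, and DESeq2 on 44 animals called 80 and 147, besides 3 for the interaction. At least 200 counts in 1 animal gave 32 for HFH against HFL/HFL. The causes were not tested.

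Signs turned for some uncalled values. With ALAS2 as a covariate HBA2 gave -0.18, S100A9 -0.12, GLRX -0.0028, GSTO1 0.028 and NYNRIN 0.0068 on the log2 scale. Voom gave -0.23 for ALDH3A1, 0.0023 for P3H1, -0.046 for PAM and 0.036 for EGLN3, and DESeq2 gave 0.13 (44 animals) and 0.11 (16 animals) for CXCL10. Leaving out each animal gave -1.38 to 0.11 for CXCL10, -0.60 to 1.264 for DBH, -0.32 to 0.996 for S100A9, -0.018 to 0.67 for MYH7, -0.014 to 0.23 for PAM, -0.20 to 0.28 for PLOD2, -0.048 to 0.13 for GLRX, -0.14 to 0.021 for GSTO1, -0.20 to 0.038 for BBOX1, -0.069 to 0.17 for SLC2A2, -0.17 to 0.055 for EGLN3, -0.065 to 0.12 for SLC23A2, -0.092 to 0.051 for NYNRIN and -0.063 to 0.057 for EGLN1. The median of the pancreas, adipose and muscle list ran from -0.018 (without animal 15) to 0.65. The difference of the groups ran from -0.070 to 0.51 SDs on the first component and from -0.77 to 0.45 SDs on the third. Normalization moved the median of all symbols by under 0.005 (log2). Low symbols such as ACTN3 and EPHA4 rest on few counts.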
